A study of Rattus norvegicus with 12 samples.

Results

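ECs of the ductus arteriosus (DA) were compared with ECs of the aorta in term rat fetuses on 6 microarrays, 3 of the DA and 3 of the aorta. Among the 11899 named probe sets that could be tested, of 26468 on the table, 214 were higher and 301 were lower in the DA. The animals were Wistar fetuses at gestation day 21 (F group), and the second pair of groups in the series, neonates 30 minutes after cesarean delivery (N group), served for the shared estimate of the spread and for a test of whether the vessel difference depended on the stage. Neither group carried an allele or received an agent. Tissue pooled from several litters was dispersed with collagenase and dispase, and cells with surface CD31 and without surface CD45 were collected by FACS. RNA of repeated sorts was accumulated for each developmental group, so an array is a pool of many fetuses. By the litters that the methods of the study count, the 3 arrays of a vessel hold separate pools, so a p-value here is set against the variation from pool to pool. A probe set entered when its mean log2 signal over all 12 arrays reached that of the lys spike, a control RNA added to each sample, which was 4.44, and when the platform annotation gave it 1 gene symbol. A difference is on the log2 scale, DA minus aorta, and is called at a limma p under 0.05 after Benjamini-Hochberg adjustment over all 18690 probe sets tested. With 3 arrays a vessel, precision is limited by their number.

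The DA is the fetal artery that carries blood from the pulmonary artery to the aorta past the lungs, and its lumen is obliterated in the days after delivery. The DA derives from the last pharyngeal arch artery and is remodelled next to cells of the neural crest, whereas the descending aorta forms from the paired dorsal aortae of the trunk. Endothelium carries positional information in homeobox and T-box factors, and acts on the smooth muscle beneath it through nitric oxide, prostaglandins, endothelin, retinoic acid and growth factors. Before birth the ductal wall thickens its intima with matrix and disassembled elastic fibres, and prostaglandin E2 keeps the vessel relaxed.

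The sorted cells carried endothelial transcripts in both vessels. Pecam1, which encodes CD31, had a DA mean of 11.999 and an aortic mean of 12.16 on the log2 scale, Cdh5, the endothelial cadherin, 11.07 and 11.09, Tie1 11.72 and 11.94, Tek 11.26 and 11.45, and Eng 11.98 and 11.89, and none of these 5 passed the test. Ptprc, which encodes CD45, was below the lys filter, one of 9 such among the 20 leukocyte markers. Of the 17 measured endothelial markers 14 had a difference below 0. Among these, 3 were lower in the DA by limma (Plvap, Adgrl4 and Flt1, given below) and 0 markers were higher. The mean over the 17 was 9.82 to 9.91 on the DA arrays and 10.04 to 10.27 on the aortic arrays, so the vessels did not overlap. The mean over the 16 measured smooth muscle markers was 7.45 to 7.56 on the DA arrays and 7.24 to 7.28 on the aortic arrays, and it did not overlap either. Of the smooth muscle list 3 members were higher and 1 was lower: Actg2, a smooth muscle actin (1.46), Tagln (0.96, not called without DA F 1 or 2 or aorta F 1, 2 or 3, adjusted p up to 0.157) and Des (0.60, not called without any 1 of the 6 arrays, adjusted p up to 0.103) were higher, and Mylk, myosin light chain kinase (-0.59, not called without DA F 3 or aorta F 1 or 2, adjusted p up to 0.0962), was lower. Blocking on the replicate number gave counts of 5 and 3. Of the defining smooth muscle genes, Acta2 had group means of 10.97 and 10.42 (adjusted p = 0.0696, and 0.0127 with the block), and Myh11 6.11 and 5.88 (adjusted p = 0.725). The part of these shifts in the results below was not tested. In bulk samples fewer cells of a type and less RNA per cell cannot be told apart.

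Of 8 endocardial and valve markers Gata4 and Gata5 were higher and Hapln1, a hyaluronan link protein (-1.41 ± 0.19), and Plvap lower, and of 9 mesothelial and epicardial markers Tbx18 and Msln, mesothelin (0.67 ± 0.14, not called without DA F 2 or 3 or aorta F 2, adjusted p up to 0.0601), were higher and Ezr (-0.74 ± 0.13) lower. Among 12 fibroblast markers 1 was higher and 1 lower, and of 6 adipocyte markers Adipoq was lower (-0.77 ± 0.13). Limma called 0 of the 9 leukocyte, 12 cardiomyocyte, 10 Schwann cell and paraganglion, 8 erythroid and platelet, and 7 airway, thymus and thyroid markers, of which 1 erythroid marker was higher and 1 leukocyte and 2 cardiomyocyte markers were lower at an unadjusted p under 0.05.

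Single arrays stood apart in several lists. The array aorta F 2 was the highest of the aortic arrays for all 10 measured venous and lymphatic markers and the highest of all 6 arrays for 9 of them, with a list mean of 7.63 against 6.46 to 6.94 on the other 5. Prox1, the lymphatic identity factor, was at 5.46, 6.54 and 5.14 on the aortic arrays, and Lyve1, a lymphatic surface receptor, at 8.46, 9.30 and 8.82. No member of that list passed the limma test, 1 was higher and 1 lower at p under 0.05 before adjustment, and 0 were called by the t-test of the methods once adjusted. Without aorta F 2 the counts over all members were 166 higher and 189 lower. The lys spike itself was at 6.17 on DA F 1 and between 3.41 and 4.53 on the other 5 F arrays, so 3789 members lay below it on DA F 1, 582 on aorta F 1 and at most 28 on the other arrays. The arrays numbered 1 also had the highest signal of their vessel for 31 of 37 respiratory chain genes in the DA and 31 of 37 in the aorta, with list means of 9.05 and 9.02 against 8.53 to 8.72 on the other 4 arrays. Array medians of the 6 arrays lay between 5.63 and 5.73.

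**Figure D1:**
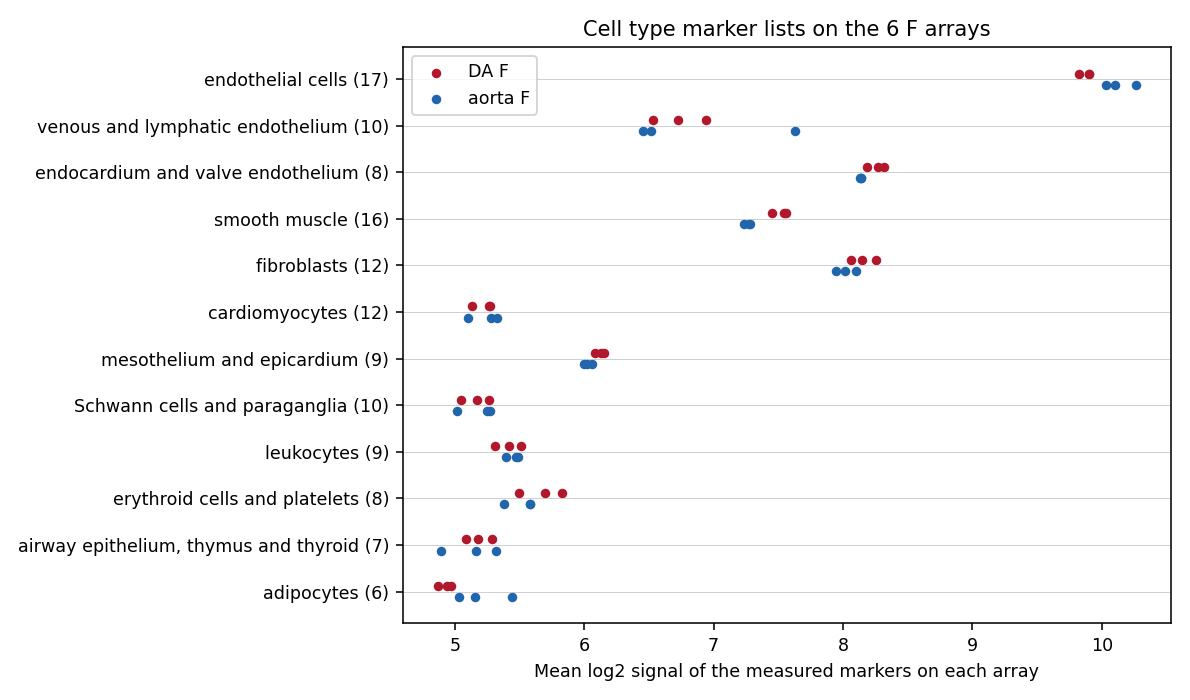
Mean log2 signal of the measured members of each marker list (number measured in parentheses) on the 3 DA F arrays (red) and the 3 aorta F arrays (blue), 1 point per array. Endothelial markers were highest in level on all arrays, the smooth muscle points of the DA lay above those of the aorta, and 1 aortic array, aorta F 2, stood apart in venous and lymphatic markers at 7.63.

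Of the 11899 members, 515 (4.33%) passed limma at an adjusted p under 0.05, 214 of them higher in the DA (1.8%) and 301 lower (2.53%). At least a 2-fold difference was reached by 75 higher and 95 lower members. With the lys spike reached on every F array 53 were lower by as much, and the t-test of the methods, once adjusted, left 14 higher and 17 lower. The differences of the called members ran from 0.42 to 3.52 in size on the log2 scale, with a median of 0.86 among those higher and -0.82 among those lower. In all 515 the 3 DA arrays did not overlap the 3 aortic arrays, a state that 2364 members (19.9%) were in regardless of the test. Calls were made across the range of signal: of the 2975 dimmest members 29 were higher and 29 lower, and of the 2975 brightest 39 were higher and 103 lower. Blocking on the replicate number, which joined F and N as well as the vessels, called 1323 members (11.1%). Of these 491 were higher (4.13%) and 832 lower (6.99%), and all 515 calls of the fit without the block were among them. On the 6 F arrays alone the block called 276 higher and 450 lower. Without 1 of the arrays the counts were between 140 and 178 higher and between 189 and 254 lower; the number higher fell by over 1.5 times without aorta F 3 (140) and the number lower without aorta F 2 (189), and 297 of the 515 were called whichever array was left out. For the gene lists below, the t-test of the methods, adjusted by Benjamini-Hochberg, called between 0 and 2 members of any list. Each list count is to be read beside the 1.8% higher and 2.53% lower of all members. Each count of signs is to be read beside a median difference of -0.02 over all genes. The lists were chosen with earlier results of these data known, and no count was tested against these values. A count near these shares says nothing particular about a list. A gene named below without a remark kept its call without any 1 of the 6 arrays. Of these, Aldh1a3, Apln, Atp2b4, Chst15, Dkk1, Ezr, Fabp5, Fbln1, Fzd8, Gata3, Me1, Nr2f1 and Twist1 lost it when the 4 arrays numbered 1, in F and N, were left out together, with adjusted p from 0.0521 (Apln) to 0.129 (Nr2f1), and Dkk1 at 0.091.

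**Figure D2:**
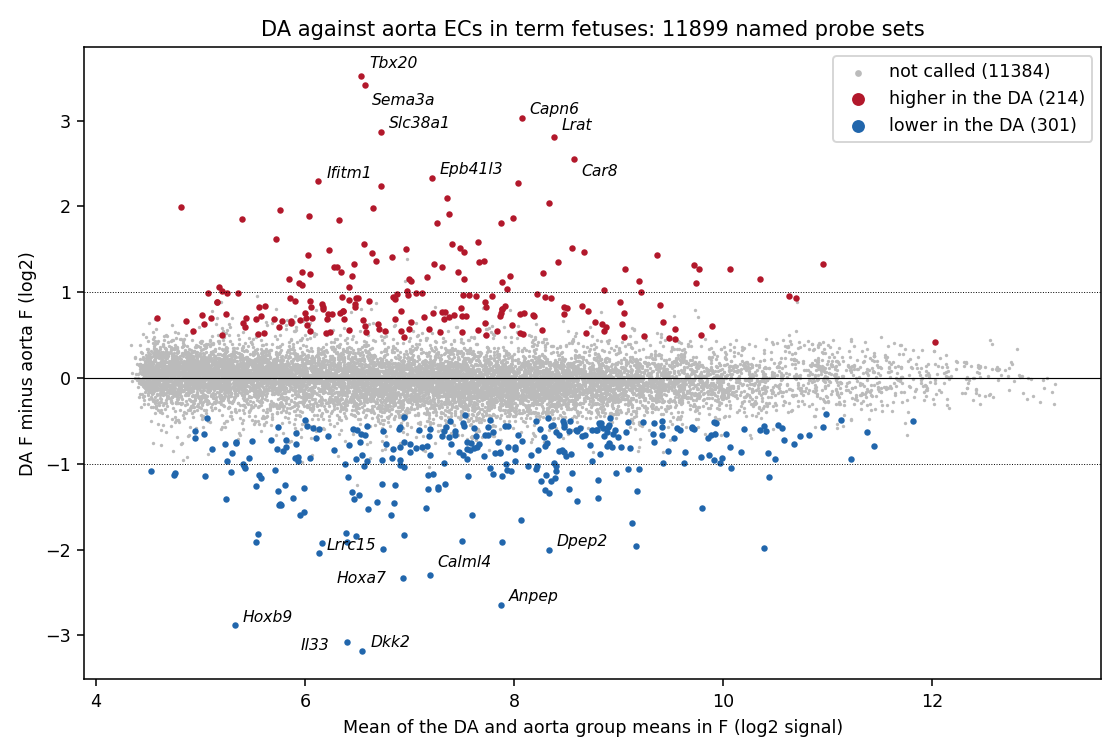
Difference between the DA and the aorta in F (log2, vertical axis) against the mean signal of both vessels (log2, horizontal axis) for 11899 named probe sets, with the 214 called higher in the DA in red, the 301 called lower in blue, dotted lines at a 2-fold difference, and the 8 largest rises and falls named. The leading genes in both directions lie well outside the grey cloud of probe sets that were not called.

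The largest rise was in Tbx20, which belongs to the T-box factors of heart and valves. Its log2 signals were 8.41, 8.11 and 8.37 on the DA arrays and 4.62, 4.94 and 4.77 on the aortic arrays, an 11.5-fold difference (log2 fold change 3.52, standard error 0.16, adjusted p = 2.62e-07). All aortic signals were near the lys filter of 4.44 and all DA signals were far above it. Sema3a, a secreted repellent of axons and of sprouting vessels, was at 8.44, 8.29 and 8.10 on the DA arrays and 5.18, 5.19 and 4.22 on the aortic arrays (log2 fold change 3.41, standard error 0.25, adjusted p = 1.12e-05). One aortic array, aorta F 3, was about 1 log2 unit under the other aortic arrays, and still no DA array came near any of them. Capn6, a calpain relative that binds microtubules and lacks protease activity, was at 9.47, 9.63 and 9.66 on the DA arrays and 6.59, 6.55 and 6.53 on the aortic arrays (log2 fold change 3.03, standard error 0.12, adjusted p = 8.51e-08), with both groups close together.

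Enzymes and carriers followed. Slc38a1, a sodium-coupled glutamine transporter, was at 8.20, 8.25 and 8.04 on the DA arrays and 5.09, 5.63 and 5.15 on the aortic arrays (7.31-fold higher, adjusted p = 3.78e-06). Lrat, which esterifies retinol for storage, was at 9.92, 9.74 and 9.69 on the DA arrays and 7.33, 7.07 and 6.53 on the aortic arrays (6.98-fold, adjusted p = 3.78e-06). Car8, a carbonic anhydrase relative without catalytic activity, was 5.88-fold higher. None of these genes had an aortic array within reach of the DA arrays. Slc7a8, a transporter of neutral amino acids, rose 3.95-fold with 1 DA array, DA F 3, above the others at 7.29, 7.43 and 8.20. Dpp4, a membrane peptidase that trims chemokines and incretins, was 3.61-fold higher. It was at 6.44, 5.95 and 6.58 on the DA arrays and 4.71, 4.39 and 4.30 on the aortic arrays. Its aortic mean of 4.47 was near the lys filter of 4.44, so its fold rests on an aortic signal near background.

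Membrane and signalling proteins were among the other leading rises. Gdf6, a BMP family ligand, was at 9.12, 9.16 and 9.25 on the DA arrays and 6.72, 7.08 and 6.92 on the aortic arrays (4.82-fold). Trpc5, a calcium-permeable cation channel, was at 7.73, 7.99 and 7.82 on the DA arrays and 6.20, 5.72 and 4.89 on the aortic arrays (4.73-fold), with the aortic arrays spread over more than 1 log2 unit. Gpr182, an atypical chemokine receptor of endothelium, was 4.12-fold higher, and Gna14, a G protein alpha subunit of the Gq class, 3.97-fold, at low signals of 6.03, 5.57 and 5.82 on the DA arrays and 4.16, 3.46 and 3.84 on the aortic arrays. Gna14 was below the lys spike on aorta F 1, aorta F 2 and DA F 1, and its aortic mean of 3.82 was below the filter, which it passed through the DA arrays, so its fold rests on an aortic signal near background. Epb41l3, a membrane skeleton protein, rose 5.05-fold, Ifitm1, an interferon-induced membrane protein, 4.89-fold, Sntg2, a syntrophin, 3.89-fold, Shisa3, an endoplasmic reticulum protein that restrains Wnt and FGF receptors, 3.76-fold, Prnp, the prion protein, 3.7-fold, Cxadr, a tight junction adhesion protein and virus receptor, 3.65-fold, and Ptx3, a secreted pentraxin, 4.28-fold. Gata5, a zinc finger factor of the endocardium, closed the 20 largest rises at 3.6-fold.

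The largest fall in the DA was in Dkk2, a secreted Wnt modulator. Its log2 signals were 4.92, 4.62 and 5.34 on the DA arrays and 8.57, 7.91 and 7.94 on the aortic arrays, 9.04-fold higher in the aorta (log2 fold change -3.18, standard error 0.32, adjusted p = 8.45e-05). Il33, a nuclear alarmin of endothelium, was at 5.14, 4.65 and 4.80 on the DA arrays and 7.91, 8.02 and 7.89 on the aortic arrays (log2 fold change -3.08, standard error 0.18, adjusted p = 2.14e-06). Hoxb9, a homeobox factor of the trunk, was at 3.57, 3.91 and 4.18 on the DA arrays and 6.46, 6.96 and 6.89 on the aortic arrays (log2 fold change -2.88, standard error 0.20, adjusted p = 8.16e-06). For all 3 genes the DA signal was below the lys spike on DA F 1, and the aortic signals were well above the spike on every array. Hoxb9 was below the spike on DA F 2 as well, and its DA mean of 3.89 was below the filter, which it passed through the aortic arrays, so the size of its difference rests on a DA signal near background.

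Surface enzymes and secreted proteins were among the other falls. Anpep, an aminopeptidase that cleaves angiotensin peptides, was at 6.50, 6.36 and 6.80 on the DA arrays and 8.99, 9.27 and 9.33 on the aortic arrays (6.24-fold higher in the aorta, adjusted p = 1.89e-06). Dpep2, a dipeptidase of leukotriene metabolism, was at 7.27, 7.22 and 7.49 on the DA arrays and 9.11, 9.499 and 9.39 on the aortic arrays (4.01-fold). Both were well above the spike in the DA too. Sfrp2, a secreted Wnt antagonist, was at 9.37, 9.502 and 9.34 on the DA arrays and 11.34, 11.40 and 11.41 on the aortic arrays (3.95-fold). Lamb3, a laminin chain of epithelial basement membranes, was 3.76-fold higher in the aorta, Il6, an inflammatory cytokine, 3.73-fold, and Tnfsf10, the death receptor ligand TRAIL, 3.57-fold.

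Intracellular proteins lower in the DA included Gucy1a1, a subunit of the nitric oxide receptor guanylate cyclase, at 5.11, 5.10 and 5.399 on the DA arrays and 7.31, 7.004 and 7.06 on the aortic arrays (3.79-fold higher in the aorta), and Pde8a, a cyclic AMP phosphodiesterase, at 3.48-fold. Hoxa7 was 5.01-fold higher in the aorta, Calml4, a calmodulin-like protein, 4.92-fold, Lrrc15, a leucine-rich repeat membrane protein, 4.12-fold, Cpne5, a copine, 3.99-fold, Tppp3, a tubulin-binding protein, 3.9-fold, Sytl2, a Rab27 effector of vesicle docking, 3.77-fold, Sntb1, a syntrophin, 3.76-fold, and Sult1a1, a phenol sulfotransferase, 3.56-fold. The probe set annotated to Or4b1c, an olfactory receptor, was 3.54-fold higher. Of the 20 largest falls, 14 lay under the lys spike on some F array, against 1 of the 20 largest rises. Each of these falls was under it on DA F 1, where the spike was at 6.17, against 3.41 to 4.53 on the other F arrays. Only Hoxb9 was under it on another array as well.

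**Figure D3:**
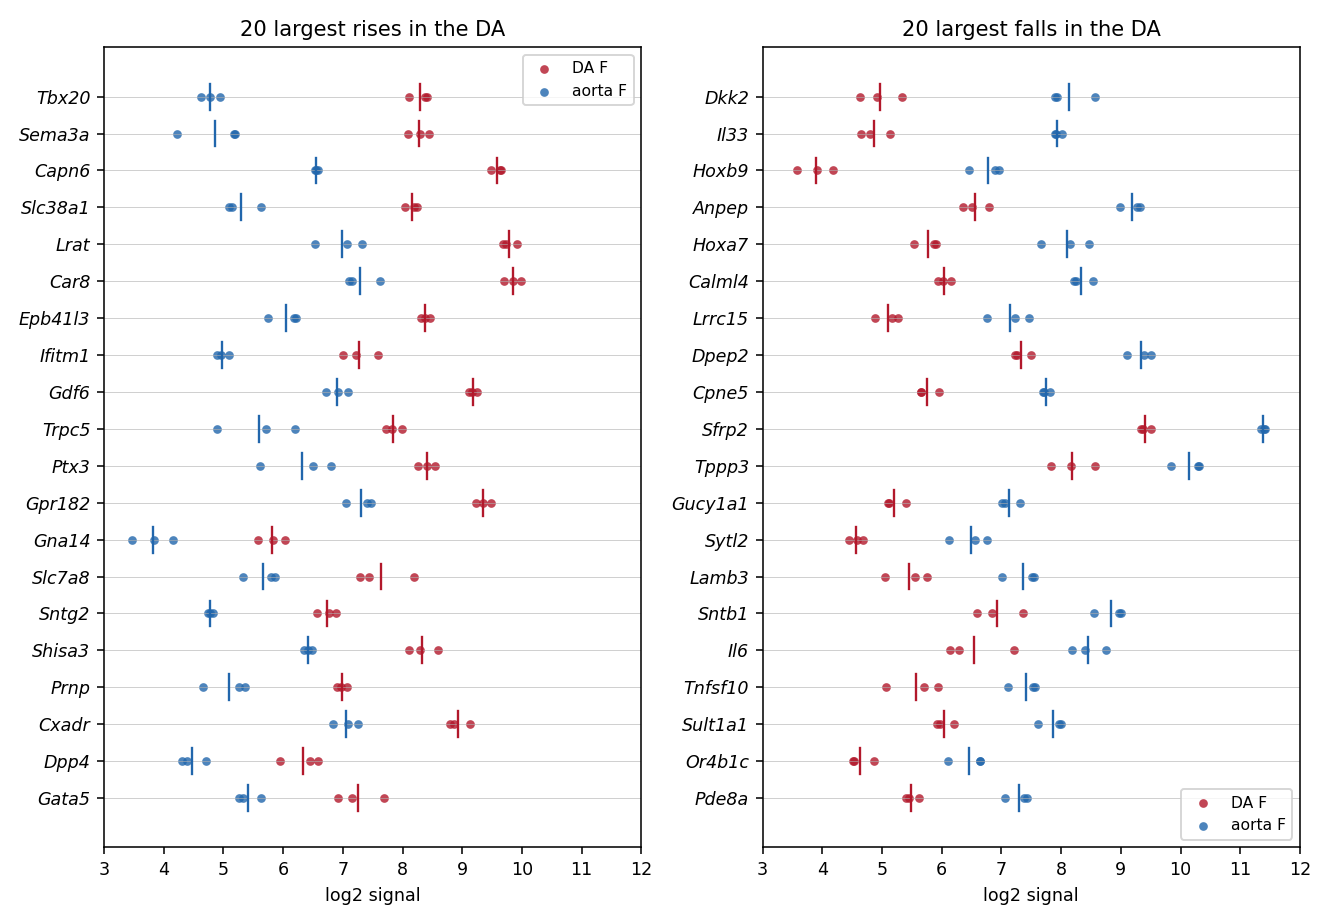
Log2 signal (horizontal axis) of the 20 largest rises (left) and the 20 largest falls (right) on the 3 DA F arrays (red points) and the 3 aorta F arrays (blue points), with a vertical bar at each group mean. In all 40 genes the points of the vessels do not overlap.

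The promoters of genes that led the comparison are shown so that the letters around their starts can be read beside the levels. RefSeq (assembly GRCr8) gave a window of 250 bases before and 50 after the start for 9279 of the 11221 different symbols among the members. Each is printed 5′ to 3′ on the strand of the gene, in lower case, with matches to any searched motif in capitals. Motifs were searched on both strands: the T-box site AGGTGTGA, the site of GATA factors AGATAA, the homeobox core TAATTA, the retinoic acid receptor site AGGTCA, the cyclic AMP response element CRE, TGACGTCA, the AP-1 site TGANTCA, the ETS core CCGGAAGT, the box TATAAA, called TATA here, and the NF-kappaB consensus. The first 3 windows belong to the largest rises with an entry, the next 3 to the largest falls with an entry, and Vcam1 and Il6 lead, with Il33, the cytokine genes that were lower in the DA. Tbx20 lies at chr8:31533960-31534259, minus strand, Capn6 at chrX:112202129-112202428, minus strand, Slc38a1 at chr7:129681352-129681651, minus strand, Il33 at chr1:237115323-237115622, plus strand, Anpep at chr1:143195052-143195351, minus strand, Hoxa7 at chr4:82648192-82648491, minus strand, Vcam1 at chr2:206742734-206743033, minus strand and Il6 at chr4:5894526-5894825, minus strand.
Tbx20: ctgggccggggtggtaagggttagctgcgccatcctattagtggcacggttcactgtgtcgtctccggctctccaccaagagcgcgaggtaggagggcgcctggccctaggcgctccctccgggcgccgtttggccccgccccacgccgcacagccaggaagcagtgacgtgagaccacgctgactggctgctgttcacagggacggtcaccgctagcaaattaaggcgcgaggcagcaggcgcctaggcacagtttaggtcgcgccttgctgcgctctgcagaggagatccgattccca
Capn6: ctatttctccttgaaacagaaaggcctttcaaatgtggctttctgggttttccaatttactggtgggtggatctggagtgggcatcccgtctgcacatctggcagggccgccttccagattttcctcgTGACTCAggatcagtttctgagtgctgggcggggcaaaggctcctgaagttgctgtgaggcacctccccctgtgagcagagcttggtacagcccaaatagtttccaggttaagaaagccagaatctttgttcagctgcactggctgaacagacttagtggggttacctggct
Slc38a1: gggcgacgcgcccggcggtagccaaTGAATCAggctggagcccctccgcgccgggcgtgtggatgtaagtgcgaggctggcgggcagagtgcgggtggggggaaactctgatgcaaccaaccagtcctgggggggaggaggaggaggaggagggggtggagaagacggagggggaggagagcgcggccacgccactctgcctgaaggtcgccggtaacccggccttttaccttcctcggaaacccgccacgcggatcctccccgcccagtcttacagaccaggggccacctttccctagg
Il33: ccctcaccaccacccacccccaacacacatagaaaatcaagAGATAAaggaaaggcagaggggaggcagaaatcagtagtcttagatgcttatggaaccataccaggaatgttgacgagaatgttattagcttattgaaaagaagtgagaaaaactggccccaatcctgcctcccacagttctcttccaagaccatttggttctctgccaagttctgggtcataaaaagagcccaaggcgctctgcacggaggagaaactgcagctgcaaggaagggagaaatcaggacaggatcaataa
Anpep: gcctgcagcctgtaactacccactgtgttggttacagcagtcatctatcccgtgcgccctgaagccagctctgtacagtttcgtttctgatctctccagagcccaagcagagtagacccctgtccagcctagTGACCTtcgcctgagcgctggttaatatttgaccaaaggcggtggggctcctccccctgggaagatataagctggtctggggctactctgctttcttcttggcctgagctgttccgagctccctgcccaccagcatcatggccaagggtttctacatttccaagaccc
Hoxa7: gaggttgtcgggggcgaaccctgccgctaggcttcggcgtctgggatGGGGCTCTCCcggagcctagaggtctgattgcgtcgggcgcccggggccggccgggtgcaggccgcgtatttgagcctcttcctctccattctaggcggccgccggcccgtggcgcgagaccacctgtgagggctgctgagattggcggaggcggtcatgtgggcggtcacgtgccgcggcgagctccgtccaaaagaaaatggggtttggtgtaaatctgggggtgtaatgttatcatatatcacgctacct
Vcam1: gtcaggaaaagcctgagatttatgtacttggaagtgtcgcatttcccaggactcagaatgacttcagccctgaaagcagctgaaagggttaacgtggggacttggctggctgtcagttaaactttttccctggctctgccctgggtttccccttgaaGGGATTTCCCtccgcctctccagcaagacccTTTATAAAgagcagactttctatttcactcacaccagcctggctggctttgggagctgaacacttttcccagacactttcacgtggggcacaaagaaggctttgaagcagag
Il6: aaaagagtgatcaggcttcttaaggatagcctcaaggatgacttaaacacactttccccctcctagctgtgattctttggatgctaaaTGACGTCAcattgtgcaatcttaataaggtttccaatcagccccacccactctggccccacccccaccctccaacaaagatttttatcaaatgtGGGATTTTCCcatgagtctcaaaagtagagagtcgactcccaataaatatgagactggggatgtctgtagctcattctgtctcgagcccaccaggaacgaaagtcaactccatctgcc

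No searched motif is in the Tbx20 window. The Capn6 and Slc38a1 windows hold an AP-1 match each, that of Il33 a GATA match, that of Anpep a retinoic acid receptor match and that of Hoxa7 an NF-kappaB match. The Vcam1 window holds an NF-kappaB match followed by a TATA match that reads on both strands in overlapping letters, and the Il6 window a CRE and an NF-kappaB match. Over all 27457 promoters of this length, 7.6% hold the NF-kappaB consensus, 14.3% TATA, 1.91% CRE, 7.33% AP-1, 11.3% GATA, 15.7% the retinoic acid receptor site, 1.1% the T-box site, 5.35% the homeobox core and 4.01% the ETS core. Among the members with a window the NF-kappaB consensus is in 10.2%, in 14.5% of the 159 called higher and in 15.5% of the 238 called lower. The ETS core is in 7.44% of the members with a window, in 1 of those called higher and in 0 of those called lower. These shares describe letters in the windows and were not tested.

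Several transcription factors of the heart and pharyngeal arches were higher in the DA. Of 7 measured T-box genes 2 were higher and 0 lower by limma, with 2 and 0 at an unadjusted p under 0.05: Tbx20, and Tbx18, a factor of the epicardium and sinus horns, at 11.002, 10.83 and 10.96 on the DA arrays and 9.83, 9.78 and 9.71 on the aortic arrays (log2 fold change 1.15, standard error 0.10, adjusted p = 4.23e-05). Of 18 measured cardiac and second heart field genes 5 were higher and 0 lower by limma, with 6 and 0 at an unadjusted p under 0.05. Gata4, a zinc finger factor of heart and endocardium, was at 6.75, 6.38 and 6.47 on the DA arrays and 4.79, 5.02 and 4.93 on the aortic arrays (log2 fold change 1.62, standard error 0.16, adjusted p = 8.45e-05). The lowest DA array was more than 1 log2 unit above the highest aortic array. Hand2, a basic helix-loop-helix factor of the arches and right ventricle, was at 7.87, 7.76 and 8.07 on the DA arrays and 6.38, 6.65 and 6.67 on the aortic arrays (1.33 ± 0.17, log2 fold change ± standard error). Isl1, a LIM homeobox factor of cardiac progenitors, was at 8.70, 8.33 and 8.29 on the DA arrays and 7.57, 7.33 and 7.33 on the aortic arrays (1.03 ± 0.15). Fgf10, a growth factor of the second heart field, was at 7.43, 7.15 and 7.51 on the DA arrays and 6.01, 5.99 and 5.97 on the aortic arrays (1.37 ± 0.15). The groups of all these genes were apart. The related Gata6 was at 10.90 in the DA and 10.91 in the aorta (adjusted p = 0.99), and Nkx2-5, the cardiac homeobox factor, at 5.78 and 5.76 (adjusted p = 0.99). The median difference over the 18 genes was 0.03, against -0.02 over all genes tested.

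Hox genes, whose order along the chromosome mirrors the order of their expression along the body axis, differed in both directions, and 6 of the 17 measured (35.3%) were called, beside 4.33% of all members. Of the 8 measured genes of groups 1 to 4, Hoxa2 was higher in the DA at 8.74, 8.97 and 9.03 on the DA arrays and 7.96, 8.08 and 8.25 on the aortic arrays (log2 fold change 0.81, standard error 0.13, adjusted p = 0.0026). Hoxa4 was at 9.40, 9.07 and 9.73 on the DA arrays and 7.66, 8.05 and 8.09 on the aortic arrays (log2 fold change 1.47, standard error 0.31, adjusted p = 0.0172, not called without DA F 1 or 3 or aorta F 1 or 2, adjusted p up to 0.0883). In both genes the DA arrays lay above all aortic arrays. The replicate block added 2 of this group as lower, Hoxb3 (-0.65, adjusted p = 0.00558 with the block and 0.106 without) and Hoxd4 (-0.50, 0.0322 and 0.351). Of the 9 measured genes of groups 5 to 13, 4 were lower and 0 higher by limma, with the same counts at an unadjusted p under 0.05: Hoxb9, Hoxa7, Hoxb8 at 5.04, 5.16 and 5.34 on the DA arrays and 6.43, 6.84 and 6.49 on the aortic arrays (log2 fold change -1.40, standard error 0.18, adjusted p = 0.000572), and Hoxb7 (-0.95, not called without aorta F 2, adjusted p = 0.054). Hoxa5, in the same cluster as Hoxa7, was bright in both vessels, at 10.23 and 9.97, and was not called (adjusted p = 0.661). Of the 4 called lower, Hoxb9 was below the lys spike on 2 F arrays and the others on DA F 1. Of 7 Hox cofactors limma called 0, with 1 lower at an unadjusted p under 0.05. Among other gene families by symbol, 3 of 14 Sox genes (21.4%) and 1 of 145 Zfp genes (0.69%) were called.

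**Figure D4:**
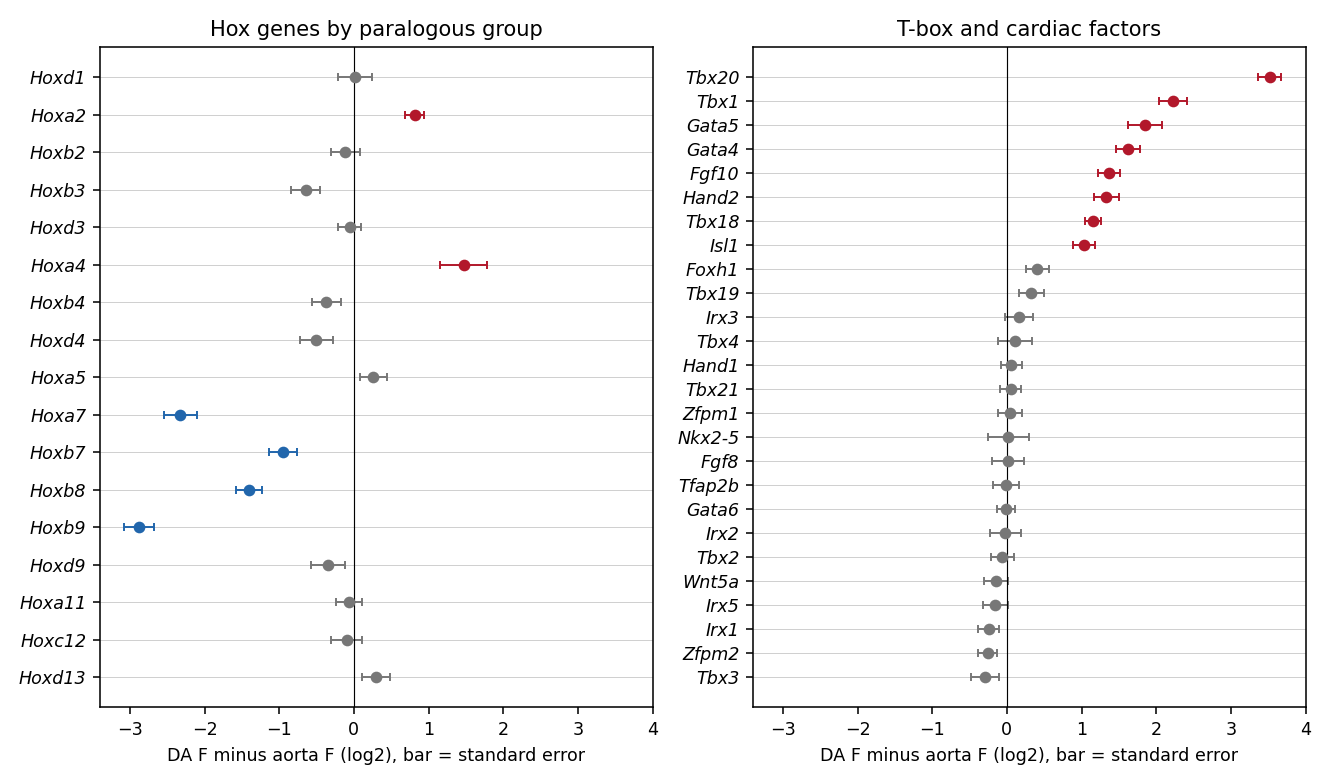
Difference between the DA and the aorta in F (log2, horizontal axis) with its standard error for Hox genes in order of paralogous group (left) and for T-box and cardiac factors in order of size (right), red called higher, blue called lower and grey not called. Tbx1 is a probe set named through the study's own tables, and the Hox differences called lower lie in groups 7 to 9.

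Some probe sets carry no symbol in the platform annotation but are named in the study's tables; 37 such were tested and are kept out of all counts here, since the study chose them for this very difference. Tbx1, the T-box factor of the pharyngeal arches, was at 10.14, 10.23 and 10.32 on the DA arrays and 7.76, 8.27 and 7.97 on the aortic arrays (2.23 ± 0.19). The DA arrays lay above all aortic arrays. In the aorta, Adgrg6, an adhesion receptor of Schwann cells and vessels, was higher at 10.91, 10.55 and 10.66 against 8.05, 7.79 and 8.16 in the DA (-2.71 ± 0.24), and Prdm6, a vascular chromatin factor, at 8.12, 8.08 and 8.02 against 6.73, 6.55 and 6.29 (-1.55 ± 0.12). Krt7 had a named probe set with a difference of 0.32 (adjusted p = 0.212) and one named by the study with 1.06 (not called without DA F 1 or 2 or aorta F 2 or 3, adjusted p up to 0.0755), so its probe sets disagree.

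Genes linked to epithelial to mesenchymal transition and the neural crest gave 3 higher and 0 lower of 18 by limma, and 4 and 3 at an unadjusted p under 0.05. Cdh2, N-cadherin, was at 8.52, 8.52 and 8.63 on the DA arrays and 7.55, 7.22 and 7.33 on the aortic arrays (log2 fold change 1.19, standard error 0.11, adjusted p = 5.77e-05). Twist1, a basic helix-loop-helix factor of mesenchyme, was at 7.17, 6.83 and 6.91 on the DA arrays and 5.81, 6.0004 and 6.32 on the aortic arrays (0.93 ± 0.16). Sox8 was the third (0.68 ± 0.17, not called without DA F 1 or 2 or aorta F 1, 2 or 3, adjusted p up to 0.186). Of 31 endothelial transcription factors 2 were higher, Gata3 (0.89 ± 0.15) and Nr2f1, an orphan nuclear receptor (0.81 ± 0.16), and 3 were lower. Nkx2-3, a homeobox factor of mucosal and splenic vessels, was at 6.55, 7.01 and 6.84 on the DA arrays and 8.53, 8.46 and 8.21 on the aortic arrays (log2 fold change -1.60, standard error 0.15, adjusted p = 6.86e-05). The others were Tcf4, a partner of helix-loop-helix factors (-0.99 ± 0.17), and Mecom, a zinc finger factor of arterial endothelium (-0.61 ± 0.13, not called without DA F 2 or 3 or aorta F 1 or 2, adjusted p up to 0.0964, with another of its probe sets not called). Of these factors 22 had a difference below 0, and the block raised the count lower from 3 to 7. Sox17, an arterial identity factor, was one of those added (-0.40, adjusted p = 0.0221 with the block and 0.101 without).

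Retinoid genes moved in both directions, with 2 higher and 3 lower of 22. Lrat, described above, and Rarres2, the chemokine chemerin (0.56 ± 0.11, not called without DA F 1 or aorta F 3, adjusted p up to 0.0725), were higher in the DA. Cyp26b1, which breaks down retinoic acid, was at 6.72, 6.63 and 6.48 on the DA arrays and 7.85, 7.65 and 7.72 on the aortic arrays (log2 fold change -1.13, standard error 0.16, adjusted p = 0.00138). Aldh1a3, which makes it, was at 6.999, 7.19 and 7.28 on the DA arrays and 8.17, 7.93 and 7.89 on the aortic arrays (log2 fold change -0.84, standard error 0.15, adjusted p = 0.00552). Both enzymes were lower in the DA on every array. Rarg, a retinoic acid receptor, was lower as well (-0.57 ± 0.12, not called without DA F 2 or 3 or aorta F 1 or 2, adjusted p up to 0.0784). With the replicate block the counts were 4 and 6. Aldh1a1, a retinaldehyde dehydrogenase, was then higher, at 7.78, 7.49 and 7.29 on the DA arrays and 6.96, 5.99 and 6.22 on the aortic arrays (1.13, adjusted p = 0.000622 with the block and 0.125 without), and Crabp2, a retinoic acid carrier, lower (-0.81, 0.000135 and 0.243). In both genes the arrays numbered 1 were the highest of their vessel.

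In the prostaglandin list of 18, 3 genes were lower in the DA and 0 higher by limma, and the unadjusted p was under 0.05 for 2 higher and 5 lower. Ptgs2, the inducible cyclooxygenase, was at 9.43, 9.63 and 9.58 on the DA arrays and 10.63, 10.55 and 10.60 on the aortic arrays (log2 fold change -1.05, standard error 0.11, adjusted p = 0.000129). Abcc4, an exporter of prostaglandins and cyclic nucleotides, was at 7.49, 7.80 and 7.96 on the DA arrays and 8.83, 9.03 and 8.98 on the aortic arrays (log2 fold change -1.20, standard error 0.16, adjusted p = 0.000744). The DA was lower on every array in both, although of the 3 probe sets of Abcc4 1 was not called. Pla2g4a, the phospholipase that frees arachidonic acid, was lower (-1.01 ± 0.24, not called without DA F 1, 2 or 3 or aorta F 1 or 3, adjusted p up to 0.126). Slco2a1, the uptake transporter of prostaglandins, was bright at 11.21, 11.46 and 11.61 on the DA arrays and 11.76, 12.28 and 12.24 on the aortic arrays. The vessels did not overlap, and Slco2a1 was lower in the DA with the block (adjusted p = 0.000712) and not without it (adjusted p = 0.0941).

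Nitric oxide and cyclic GMP genes gave 2 higher and 4 lower of 27. Lower in the DA were Gucy1a1, described above, Gch1, the first enzyme of the tetrahydrobiopterin cofactor (-0.96 ± 0.19, not called without DA F 3, adjusted p = 0.0555), Npr2, the receptor of C-type natriuretic peptide (-0.75 ± 0.15, not called without DA F 2 or aorta F 1 or 2, adjusted p up to 0.0643), and Slc7a1, an arginine transporter (-0.56 ± 0.14, not called without DA F 1, 2 or 3 or aorta F 2 or 3, adjusted p up to 0.196). Higher were Nos1, the neuronal nitric oxide synthase, at 6.63, 6.54 and 6.23 on the DA arrays and 5.63, 5.695 and 5.59 on the aortic arrays (0.83 ± 0.16, not called without DA F 1 or 2 or aorta F 3, adjusted p up to 0.0588), and Pde5a, which degrades cyclic GMP (0.67 ± 0.17, not called without DA F 2 or 3 or aorta F 2 or 3, adjusted p up to 0.179). Of these 6 the call of Gucy1a1 alone held without any 1 array. Nos3, the endothelial synthase, was at 10.87 in the DA and 11.13 in the aorta (adjusted p = 0.487). The block gave 5 higher and 6 lower, and added the other cyclase subunits Gucy1b1 (-0.49, adjusted p = 0.0168 with the block and 0.0774 without) and Gucy1a2 (-0.59, 0.00899 and 0.0722) as lower.

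Among 20 genes of the endothelin and angiotensin systems and of membrane peptidases, 1 was higher and 4 were lower in the DA. Dpp4 rose, and Anpep and Dpep2 fell, as given above. Ace, the angiotensin converting enzyme, was at 11.09, 10.98 and 11.13 on the DA arrays and 11.68, 11.73 and 11.67 on the aortic arrays (log2 fold change -0.63, standard error 0.10, adjusted p = 0.00317). Calcrl, the receptor of calcitonin gene-related peptide and adrenomedullin, was at 10.89, 11.18 and 11.06 on the DA arrays and 11.84, 11.83 and 11.84 on the aortic arrays (log2 fold change -0.79, standard error 0.11, adjusted p = 0.00135). Both were among the bright genes in both vessels, and both were lower on every DA array. The block gave 2 higher and 5 lower.

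Of 23 TGF-beta genes 3 were higher and 1 was lower. Tgfb2 was at 10.17, 10.34 and 10.64 on the DA arrays and 8.99, 9.12 and 9.08 on the aortic arrays (log2 fold change 1.32, standard error 0.13, adjusted p = 6.86e-05). Ccn2, a matricellular target of TGF-beta and of YAP, was at 9.82, 9.63 and 9.82 on the DA arrays and 8.80, 8.71 and 8.37 on the aortic arrays (1.13 ± 0.15). Ltbp1, which stores latent TGF-beta in the matrix, was higher too (0.63 ± 0.13, not called without DA F 1 or 2 or aorta F 2 or 3, adjusted p up to 0.0735). Acvrl1, the ALK1 receptor of endothelium, was lower at 10.11, 9.997 and 9.88 on the DA arrays and 10.96, 10.86 and 10.77 on the aortic arrays (log2 fold change -0.87, standard error 0.12, adjusted p = 0.00114). Tgfb2 and Acvrl1 thus differed in opposite directions, with no array out of its group. Of the 23 genes 17 had a difference below 0, and the block gave 3 higher and 3 lower. Of 25 BMP and GDF genes Gdf6 was higher, and Gdf15 and Id4, an inhibitor of helix-loop-helix factors (-0.66 ± 0.11), were lower. Gdf15, a stress-induced cytokine, was at 7.07, 7.20 and 7.44 on the DA arrays and 8.77, 8.93 and 8.99 on the aortic arrays (-1.66 ± 0.13). The block gave 2 and 3.

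Of 45 Wnt genes 2 were higher and 4 were lower. Lgr5, the R-spondin receptor of stem cells, was at 8.46, 8.65 and 9.21 on the DA arrays and 7.11, 7.05 and 6.76 on the aortic arrays (log2 fold change 1.80, standard error 0.19, adjusted p = 0.000123). Dkk1, a Wnt antagonist, was at 6.77, 6.56 and 6.64 on the DA arrays and 5.42, 4.88 and 6.03 on the aortic arrays (1.21 ± 0.23). Dkk1 and its relative Dkk2 thus differed in opposite directions. Lower beside Dkk2 and Sfrp2 were Ror2, a receptor of Wnt5a (-1.07 ± 0.15), and the receptor Fzd8 (-0.60 ± 0.11). The block gave 4 higher and 4 lower.

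Of 22 genes of VEGF and angiopoietin signalling 4 were higher and 2 were lower. Vegfa was at 7.91, 7.70 and 8.26 on the DA arrays and 6.51, 6.75 and 6.73 on the aortic arrays (log2 fold change 1.29, standard error 0.14, adjusted p = 0.000189). Apln, the apelin peptide of growing vessels, was at 7.38, 7.31 and 7.24 on the DA arrays and 6.09, 6.52 and 6.49 on the aortic arrays (0.94 ± 0.15). The DA arrays were above the aortic arrays in both. Gpr182 and Nrp1, a coreceptor of VEGF and semaphorins (0.50 ± 0.12, not called without DA F 1, 2 or 3 or aorta F 2 or 3, adjusted p up to 0.144), were the others. Flt1, a VEGF receptor (-0.60 ± 0.12, not called without aorta F 2, adjusted p = 0.0536), and Angptl1 (-1.45 ± 0.24) were lower. Of 30 genes of the FGF, HGF, PDGF and IGF systems 5 were higher and 2 were lower: Met, the HGF receptor, was at 8.46, 8.39 and 8.49 on the DA arrays and 7.54, 7.19 and 7.25 on the aortic arrays (log2 fold change 1.12, standard error 0.15, adjusted p = 0.000811). Igfbp3, an IGF carrier, was lower (-0.75 ± 0.14). Fgf10, Fgf18, Fgfr2 and Spry1 were the other rises and Fgf2 the other fall, with the calls of Fgf18 (not called without DA F 1 or 2 or aorta F 3, adjusted p up to 0.0593), Fgfr2 (not called without DA F 3 or aorta F 3, adjusted p up to 0.0664), Spry1 (not called without DA F 2 or 3 or aorta F 1 or 3, adjusted p up to 0.173) and Fgf2 (not called without DA F 1 or 2 or aorta F 1 or 3, adjusted p up to 0.128) not held without single arrays.

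Guidance genes gave 4 higher and 1 lower of 36. Beside Sema3a, Efnb1, an ephrin ligand, was at 6.80, 7.02 and 7.04 on the DA arrays and 5.55, 6.04 and 5.58 on the aortic arrays (log2 fold change 1.23, standard error 0.16, adjusted p = 0.000519). Sema5b was at 6.93, 6.85 and 6.99 on the DA arrays and 5.30, 6.20 and 5.397 on the aortic arrays (1.29 ± 0.20). Robo2, a slit receptor, was higher (0.89 ± 0.15). Unc5c, a netrin receptor, was lower (-0.55 ± 0.11, not called without DA F 3 or aorta F 2, adjusted p up to 0.0578). The block gave 4 and 3 for guidance and 4 and 4 for the VEGF list. Of 29 Notch and arterial identity genes, 1 was higher, Nrp1, and 5 were lower, and 25 had a difference below 0 with a median of -0.14. Jag2, a Notch ligand, was at 8.25, 8.10 and 8.27 on the DA arrays and 9.36, 9.34 and 9.503 on the aortic arrays (log2 fold change -1.19, standard error 0.12, adjusted p = 8.45e-05). Mfng, a glycosyltransferase that tunes Notch, was lower (-0.86 ± 0.13), as were Acvrl1, Gja4, an arterial connexin (-0.57 ± 0.12, not called without DA F 3 or aorta F 1 or 2, adjusted p up to 0.0679), and Dll1 (-0.62 ± 0.14, not called without DA F 2 or 3 or aorta F 1 or 2, adjusted p up to 0.134). The block gave 8 lower and added Dll4 (-0.49, adjusted p = 0.0417 with the block and 0.217 without). Beside this list stand the endothelial markers, of which 14 of 17 had a difference below 0 and 3 were lower: Plvap, the diaphragm protein of fenestrae, at 9.37, 9.16 and 9.46 on the DA arrays and 10.08, 10.36 and 10.30 on the aortic arrays (log2 fold change -0.92, standard error 0.17, adjusted p = 0.00633), Adgrl4 (-0.65 ± 0.11) and Flt1. With the block 5 were lower. Of 10 Hedgehog genes Gli2, a transcriptional effector, was higher at 7.25, 6.83 and 7.05 on the DA arrays and 5.63, 6.07 and 5.85 on the aortic arrays (log2 fold change 1.19, standard error 0.17, adjusted p = 0.00115).

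Of 27 cytokine and leukocyte adhesion genes 6 were lower in the DA and 0 higher by limma, and at an unadjusted p under 0.05 there were 1 higher and 12 lower, with a median difference of -0.19. Vcam1, the leukocyte adhesion molecule, was at 9.11, 9.02 and 8.99 on the DA arrays and 10.54, 10.66 and 10.45 on the aortic arrays (log2 fold change -1.51, standard error 0.13, adjusted p = 3.81e-05). Il6 was at 7.21, 6.29 and 6.14 on the DA arrays and 8.75, 8.41 and 8.19 on the aortic arrays (log2 fold change -1.90, standard error 0.25, adjusted p = 0.000819), with DA F 1 about 1 log2 unit above the other DA arrays and still below all aortic arrays. Tnfsf15, an endothelial cytokine that restrains vessel growth, was at 7.34, 7.25 and 7.16 on the DA arrays and 8.05, 8.49 and 8.35 on the aortic arrays (-1.05 ± 0.14). Il33 was the first of the list. Cxcl1, a neutrophil chemokine (-0.88 ± 0.18, not called without DA F 2 or aorta F 2 or 3, adjusted p up to 0.0726), and Cxcl16 (-0.52 ± 0.12, not called without DA F 1, 2 or 3 or aorta F 1 or 2, adjusted p up to 0.139) were the others. The block raised the count to 11 and added Icam1 (-0.48, adjusted p = 0.0073 with the block and 0.0707 without), Nfkbia, the NF-kappaB inhibitor (-0.58, 0.00147 and 0.0747), and Cxcl10 (-0.72, 0.0138 and 0.07). Sele had group means of 8.83 and 8.80 (adjusted p = 0.984), and Selp, the other selectin measured, 11.10 and 10.81 (adjusted p = 0.327). Leukocyte markers gave list means of 5.31 to 5.51 on the DA arrays and 5.39 to 5.49 on the aortic arrays, and these overlapped.

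Of 12 complement genes and pentraxins 4 were higher and 0 lower by limma, with 5 and 0 at an unadjusted p under 0.05. Cd55, a complement regulator of the cell surface, was at 6.88, 7.48 and 7.74 on the DA arrays and 5.89, 5.80 and 6.04 on the aortic arrays (log2 fold change 1.46, standard error 0.19, adjusted p = 0.000748). Ptx3 was at 8.54, 8.26 and 8.41 on the DA arrays and 6.81, 6.51 and 5.62 on the aortic arrays, C1qtnf1 at 6.50, 6.56 and 6.42 on the DA arrays and 5.44, 5.29 and 5.43 on the aortic arrays (1.11 ± 0.14). Serping1, the C1 inhibitor, was higher (0.72 ± 0.18, not called without any 1 of the 6 arrays, adjusted p up to 0.161). The DA arrays of Ptx3 were close together and the aortic arrays spread widely. Of 23 interferon and antigen presentation genes, Ifitm1 and Sp100, a nuclear body protein (1.502 ± 0.15), were higher and Gbp2 was lower (-1.01 ± 0.20, not called without DA F 2, adjusted p = 0.0613). The block gave 3 and 3 of that list.

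Of 24 coagulation genes 2 were higher and 5 were lower in the DA. Plat, tissue plasminogen activator, was at 10.41, 10.39 and 10.40 on the DA arrays and 9.05, 9.26 and 9.08 on the aortic arrays (log2 fold change 1.27, standard error 0.12, adjusted p = 5.42e-05), with the DA arrays close together. F2r, the thrombin receptor PAR1, was higher (0.60 ± 0.12). Entpd1, the ATP-cleaving CD39, was at 9.59, 9.38 and 9.58 on the DA arrays and 10.40, 10.44 and 10.52 on the aortic arrays (log2 fold change -0.93, standard error 0.11, adjusted p = 0.00038). Serpinf1 was at 8.15, 7.68 and 7.83 on the DA arrays and 9.54, 9.20 and 9.20 on the aortic arrays (-1.43 ± 0.18). Ptprj, a receptor phosphatase, was lower (-0.94 ± 0.11), as were Thbd, thrombomodulin (-0.80 ± 0.16, not called without DA F 3 or aorta F 2 or 3, adjusted p up to 0.062), and Cd36 (-1.48 ± 0.34, not called without DA F 1 or 2 or aorta F 1 or 2, adjusted p up to 0.137). Plat dissolves clots, and Entpd1 and Thbd restrain their formation.

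Of 22 genes of the elastic fibre and its microfibrils 6 were higher and 1 was lower, beside a median difference of 0.07. Mfap4 was at 11.69, 11.48 and 11.68 on the DA arrays and 9.91, 10.45 and 10.50 on the aortic arrays (log2 fold change 1.33, standard error 0.19, adjusted p = 0.00157). Fbn1, fibrillin, was at 10.48, 10.34 and 10.05 on the DA arrays and 9.40, 9.21 and 8.95 on the aortic arrays (log2 fold change 1.11, standard error 0.17, adjusted p = 0.00276). Mfap5 was at 10.07, 9.66 and 9.37 on the DA arrays and 8.73, 8.42 and 8.13 on the aortic arrays (1.27 ± 0.23). Efemp2, a fibulin needed for elastin assembly, was at 8.93, 8.80 and 8.73 on the DA arrays and 8.11, 7.79 and 7.75 on the aortic arrays (0.94 ± 0.17). None of these overlapped between the vessels, although within each vessel Fbn1 and Mfap5 were highest on the array numbered 1. Ltbp1 and Loxl1, an elastin cross-linking enzyme (0.57 ± 0.13, not called without DA F 1 or 3 or aorta F 1, 2 or 3, adjusted p up to 0.132), were the other rises, and Fbln1 was lower (-0.61 ± 0.11). Mfap5 and Fbln1 are also fibroblast markers, and the mean of the 12 fibroblast markers was 8.06 to 8.26 on the DA arrays and 7.95 to 8.10 on the aortic arrays, which overlapped. The mean of the smooth muscle markers given above was higher in the DA, with 3 members called higher, 1 lower and 12 not called. The part of these markers in the matrix differences was not tested.

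Of 34 collagen genes and enzymes, 3 were higher and 3 were lower. The rises were in enzymes: Adamts2, which cleaves procollagen, was at 10.82, 10.64 and 10.62 on the DA arrays and 9.49, 9.46 and 9.34 on the aortic arrays (log2 fold change 1.27, standard error 0.12, adjusted p = 5.23e-05). P4ha1, a prolyl hydroxylase, was at 9.33, 9.26 and 9.36 on the DA arrays and 8.11, 7.75 and 7.54 on the aortic arrays (log2 fold change 1.52, standard error 0.17, adjusted p = 0.000184). P3h1 was higher (0.45 ± 0.11, not called without DA F 1, 2 or 3 or aorta F 1 or 3, adjusted p up to 0.173). P4ha2, the related hydroxylase, was lower (-0.75 ± 0.12), with the chains Col9a1 (-0.65 ± 0.12) and Col8a1 (-0.85 ± 0.19, not called without DA F 1 or 2 or aorta F 2 or 3, adjusted p up to 0.113). The block gave 6 higher and 6 lower. Of 29 integrins, laminins, syndecans and glypicans, 1 was higher, Gpc3 (1.24 ± 0.26, not called without DA F 1, 2 or 3 or aorta F 1 or 3, adjusted p up to 0.0874), and 6 were lower. Sdc2, a heparan sulfate proteoglycan, was at 8.23, 8.19 and 8.42 on the DA arrays and 10.15, 9.88 and 9.88 on the aortic arrays (log2 fold change -1.69, standard error 0.14, adjusted p = 3.24e-05). Lims2, an integrin adaptor, was at 7.47, 7.67 and 7.85 on the DA arrays and 8.67, 9.27 and 9.07 on the aortic arrays (-1.34 ± 0.18). Lamb3, Lama3 (-0.77 ± 0.11) and Itgb4 (-0.69 ± 0.11), which in epithelia meet in the same adhesion structure, were lower together, as was Itga1, a collagen receptor (-0.90 ± 0.15). Of 25 genes of hyaluronan, proteoglycans and heparan sulfate enzymes, Chst15, a sulfotransferase (0.71 ± 0.14), and Vcan, versican (0.42 ± 0.10, not called without any 1 of the 6 arrays, adjusted p up to 0.146), were higher. Aspn, asporin, at 4.88, 4.71 and 4.72 on the DA arrays and 6.03, 5.81 and 5.38 on the aortic arrays (-0.97 ± 0.18), Hs3st1 (-0.82 ± 0.19, not called without DA F 2 or 3 or aorta F 1 or 2, adjusted p up to 0.125) and Csgalnact1 (-1.45 ± 0.33, not called without DA F 2 or 3 or aorta F 1 or 2, adjusted p up to 0.126) were lower. Has2, hyaluronan synthase, was called higher with the block only (0.69, adjusted p = 0.00167 with it and 0.0678 without), and the block counts were 4 and 4.

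Of 28 proteases of the ADAM, ADAMTS and MMP families with their inhibitors, Adamts2, Adamts7 (0.86 ± 0.14) and Mmp11 (0.69 ± 0.15, not called without DA F 2 or 3 or aorta F 1, adjusted p up to 0.0849) were higher, and Mmp28 (-0.86 ± 0.12), Adamts3 (-0.69 ± 0.12) and Mmp16 (-0.81 ± 0.17, not called without DA F 2 or 3 or aorta F 1 or 2, adjusted p up to 0.0976) lower. Of 28 junction and barrier genes 3 were higher and 3 were lower, and 7 had a difference above 0 and 21 below. Cxadr was at 8.79, 8.86 and 9.13 on the DA arrays and 6.83, 7.26 and 7.08 on the aortic arrays, and Cdh2 and S1pr2 (0.75 ± 0.14) were the other rises. Cdh13, T-cadherin, was at 8.03, 7.86 and 8.41 on the DA arrays and 9.29, 9.59 and 9.62 on the aortic arrays (log2 fold change -1.40, standard error 0.17, adjusted p = 0.000451), and Plvap and Gja4 were the other falls. Cadherins thus differed in both directions, while Cdh5 was not called (log2 fold change -0.02, standard error 0.11, adjusted p = 0.978). The block gave 3 higher and 7 lower junction genes and 5 higher and 5 lower proteases.

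Of 31 potassium and pacemaker channel genes, Hcn4, the channel of the pacemaker current, was higher at 7.05, 6.89 and 6.97 on the DA arrays and 5.33, 5.32 and 5.79 on the aortic arrays (log2 fold change 1.49, standard error 0.16, adjusted p = 0.000129). Kcnmb4 (-0.92 ± 0.12) and Kcnq1 (-0.81 ± 0.12) were lower, as was Kcnn3, a calcium-activated channel of endothelium (-0.66 ± 0.14, not called without DA F 2 or 3 or aorta F 2 or 3, adjusted p up to 0.081). Of 33 calcium genes, Trpc5 and Cacnb3 were higher. Cacnb3, a channel subunit, was at 7.62, 7.51 and 7.49 on the DA arrays and 5.99, 6.30 and 6.09 on the aortic arrays (log2 fold change 1.42, standard error 0.14, adjusted p = 0.000104). Lower were Atp2a3, a pump of the endoplasmic reticulum (-0.90 ± 0.10), Atp2b4, a pump of the plasma membrane (-0.67 ± 0.11), and Slc8a1, the sodium calcium exchanger (-0.66 ± 0.14, not called without DA F 2 or 3 or aorta F 1 or 2, adjusted p up to 0.0741). With the block the calcium counts were 3 and 6 and those of the potassium list 2 and 5.

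Of 26 amino acid transporters 4 were higher and 3 were lower. Slc43a1 was at 7.38, 6.91 and 7.11 on the DA arrays and 5.89, 5.79 and 5.73 on the aortic arrays (log2 fold change 1.33, standard error 0.15, adjusted p = 0.000234), beside Slc38a1, Slc7a8 and Slc1a4 (0.51 ± 0.13, not called without DA F 1, 2 or 3 or aorta F 2 or 3, adjusted p up to 0.184). The taurine transporter Slc6a6 (-1.31 ± 0.16), Slc7a7 (-1.03 ± 0.20, not called without DA F 3, adjusted p = 0.0568) and Slc7a1 were lower. Of 27 lipid genes 6 were higher and Cd36 was lower. Fads1, a fatty acid desaturase, was at 7.11, 6.98 and 6.78 on the DA arrays and 5.48, 5.83 and 5.67 on the aortic arrays (log2 fold change 1.30, standard error 0.13, adjusted p = 9.84e-05). Fads2 was at 8.30, 8.16 and 8.31 on the DA arrays and 7.51, 7.51 and 7.47 on the aortic arrays (0.76 ± 0.12). Scara3 (1.03 ± 0.13), Fabp5, a fatty acid binding protein (0.78 ± 0.14), Me1, malic enzyme (0.82 ± 0.15), and Cpt1a (0.56 ± 0.13, not called without DA F 1 or 3 or aorta F 1, 2 or 3, adjusted p up to 0.132) were the other rises. Of 38 glycolysis and hypoxia genes, P4ha1, Vegfa and Aldoc (1.15 ± 0.23, not called without DA F 1 or 2 or aorta F 2 or 3, adjusted p up to 0.0672) were higher and Pdk4 was lower (-0.95 ± 0.15), and the block gave 5 and 3. None of 37 respiratory chain genes was called by limma, 0 had a p under 0.05 before adjustment, and the adjusted t-test of the methods called 0. Of these genes 31 had a difference above 0 and 6 below, with a median of 0.11.

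Of 34 oxidative stress and detoxification genes 5 were lower and 0 higher by limma, while 8 were higher and 10 lower at an unadjusted p under 0.05. Fmo2, a flavin monooxygenase, was at 6.49, 6.34 and 6.35 on the DA arrays and 7.93, 7.98 and 7.83 on the aortic arrays (log2 fold change -1.52, standard error 0.11, adjusted p = 1.24e-05). Cyp1b1 was at 5.10, 5.15 and 5.21 on the DA arrays and 6.64, 6.62 and 6.99 on the aortic arrays (-1.60 ± 0.17). Maob, monoamine oxidase B, was at 6.19, 5.71 and 5.63 on the DA arrays and 7.65, 7.09 and 7.35 on the aortic arrays (-1.52 ± 0.20). Aox1 (-1.09 ± 0.17) and Ephx1 (-0.63 ± 0.16, not called without DA F 1 or 2 or aorta F 1, 2 or 3, adjusted p up to 0.193) were the others. With the block the list gave 7 higher and 9 lower.

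All 28 measured immediate early genes had a difference below 0, with a median of -0.35, 4 passed limma as lower and 0 as higher, and 14 and 0 had an unadjusted p under 0.05. Nr4a3, an orphan nuclear receptor, was at 6.57, 6.29 and 6.44 on the DA arrays and 7.36, 7.24 and 7.56 on the aortic arrays (log2 fold change -0.95, standard error 0.13, adjusted p = 0.00116). Nr4a2 was at 10.36, 10.01 and 10.30 on the DA arrays and 10.93, 10.93 and 10.98 on the aortic arrays (-0.72 ± 0.12). Nr4a1 was at 10.57, 10.14 and 10.20 on the DA arrays and 11.11, 11.13 and 10.95 on the aortic arrays (-0.76 ± 0.14). Each DA array was below each aortic array for these relatives. Dusp2 was the last (-0.60 ± 0.12, not called without DA F 2, adjusted p = 0.0576). Fos had group means of 11.84 and 12.05 (adjusted p = 0.757) and Egr1 12.47 and 12.69 (adjusted p = 0.422). The block gave 10 lower, Atf3 among them (-0.52, adjusted p = 0.00242 with the block and 0.0772 without). The array DA F 1 was the highest of the DA arrays for 21 of the 28. Of 23 heat shock genes 20 had a difference below 0. The array aorta F 1 was the highest of the 6 for 19 of the 23, with a list mean of 9.54 against 9.19 and 9.07 on the other aortic arrays and 8.89 to 9.17 on the DA arrays, and its part in that count was not tested. Hspb1 was lower at 10.06, 9.83 and 9.70 on the DA arrays and 11.31, 10.95 and 10.80 on the aortic arrays (log2 fold change -1.16, standard error 0.18, adjusted p = 0.0022), Cryab, its relative, was higher (0.90 ± 0.21, not called without DA F 1, 2 or 3 or aorta F 2 or 3, adjusted p up to 0.139), and the block gave 1 higher and 7 lower.

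Targets of YAP and SRF gave 5 higher and 1 lower of 23. Csrp2, a LIM protein of smooth muscle, was at 9.91, 9.82 and 9.41 on the DA arrays and 8.76, 8.75 and 8.62 on the aortic arrays (log2 fold change 1.01, standard error 0.14, adjusted p = 0.001). Fhl2 was at 8.38, 8.48 and 8.42 on the DA arrays and 7.76, 7.58 and 7.69 on the aortic arrays (0.75 ± 0.12). Tpm1, a tropomyosin, was at 8.70, 8.85 and 9.11 on the DA arrays and 8.20, 8.09 and 7.90 on the aortic arrays (0.82 ± 0.15), beside Ccn2 and Tagln. Fhl1 was lower (-0.49 ± 0.12, not called without any 1 of the 6 arrays, adjusted p up to 0.154). Tagln is on the smooth muscle list as well. Of 34 cell cycle genes 27 had a difference above 0, and the list mean of 8.14 on aorta F 1, the highest aortic array for 26 of them, was above the 7.97 to 8.09 of the DA arrays, with 7.86 and 7.72 on the other aortic arrays. Of these genes 2 were higher, Cdk6 (0.83 ± 0.14) and Cdc20 (0.59 ± 0.12, not called without DA F 3 or aorta F 2 or 3, adjusted p up to 0.0617). Inhibitors were among the 3 lower: Cdkn1c was at 7.10, 6.95 and 6.99 on the DA arrays and 7.71, 7.66 and 7.97 on the aortic arrays (log2 fold change -0.77, standard error 0.12, adjusted p = 0.0025). Cdkn1a was lower (-0.80 ± 0.16, not called without DA F 2 or 3 or aorta F 2, adjusted p up to 0.057), with Ccnd3 (-0.59 ± 0.11, not called without aorta F 2, adjusted p = 0.0582). Among 34 G protein-coupled receptors 3 were higher, Gpr182, Adgrg1 (0.78 ± 0.13) and Chrm5, and 3 were lower, Sstr2, Adgrl4 and Adgre5 (-0.53 ± 0.13, not called without DA F 1 or 2 or aorta F 1, 2 or 3, adjusted p up to 0.163). Chrm5, a muscarinic receptor, was at 6.90, 6.96 and 6.997 on the DA arrays and 5.90, 5.697 and 6.08 on the aortic arrays (1.06 ± 0.19). Sstr2, a somatostatin receptor, was at 7.81, 7.82 and 7.94 on the DA arrays and 8.81, 8.92 and 9.10 on the aortic arrays (log2 fold change -1.09, standard error 0.17, adjusted p = 0.0025). The block gave 5 and 4 for the cell cycle and 5 and 7 for the receptors. Of 20 receptor tyrosine phosphatases and phosphatidylinositol enzymes 4 were lower and 0 higher by limma, and 17 had a difference below 0, with 7 lower and 1 higher at an unadjusted p under 0.05. Inpp5d, the lipid phosphatase SHIP1, was at 6.04, 5.71 and 6.33 on the DA arrays and 7.65, 7.64 and 7.58 on the aortic arrays (log2 fold change -1.60, standard error 0.16, adjusted p = 8.45e-05). Plcg2, a phospholipase C, was lower (-1.03 ± 0.17), as were Ptprj and Ptprg (-0.50 ± 0.12, not called without any 1 of the 6 arrays, adjusted p up to 0.116), and the block raised the count to 8.

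**Figure D5:**
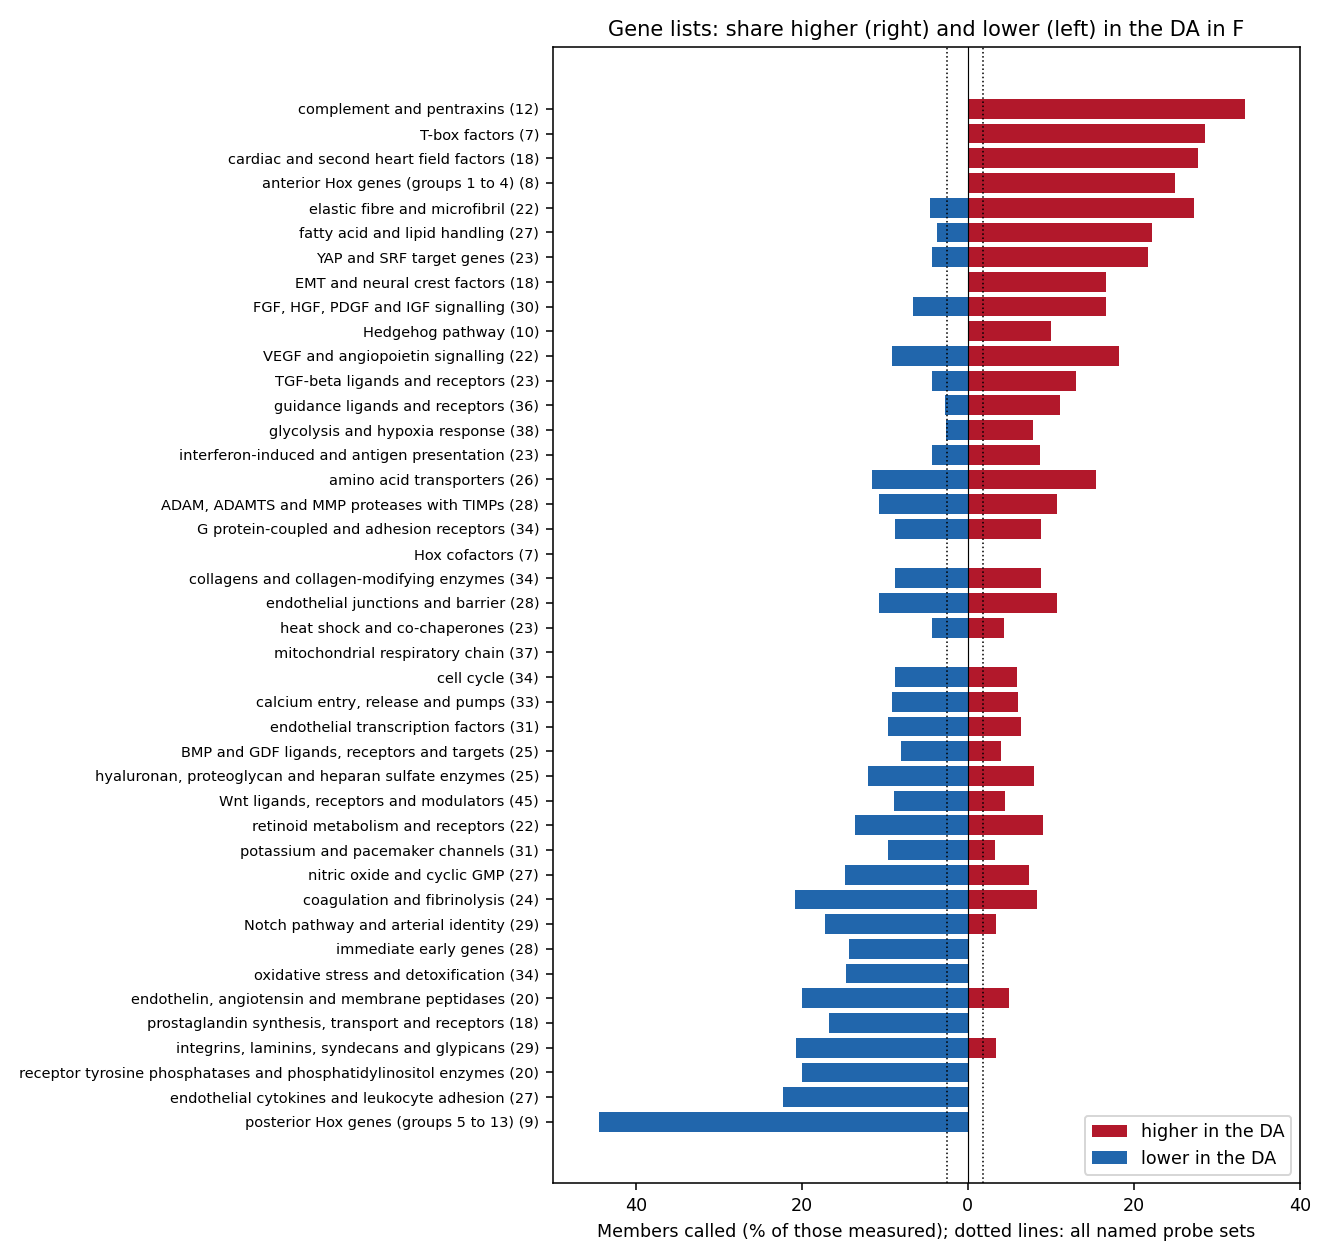
Share of the measured members of each gene list (number measured in parentheses) called higher (red, right) or lower (blue, left) in the DA in F, in percent, ordered by the difference of the shares. Dotted lines mark the shares over all named probe sets, 1.8% higher and 2.53% lower. The posterior Hox list reaches furthest to the left with 4 of 9 members, and the lists hold few genes each. The lists were chosen with earlier results of these data known, and their shares were not tested against the dotted lines.

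In the N group, on other arrays but in the same fit, the same contrast gave differences of like direction for most of the called members. Of the 214 higher in F, 152 were called higher in N and 0 lower, and of the 301 lower in F, 199 were called lower in N and 0 higher. Both contrasts use the same estimate of the spread for each probe set, so a call in N is not independent of one in F. The share of all members called in N is not given here, so these counts have no background beside them. Tbx20 had a difference of 3.94 in N, and Dkk2 of -2.89. The smallest adjusted p for a change of the vessel difference between the stages was 1, and limma called 0 members, with or without the replicate block, while 88 had an unadjusted p under 0.05. No vessel difference was thus shown to depend on the stage, and the test does not show that the stages are alike.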

How the data were processed

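The 12 arrays held labelled cDNA of sorted ECs (Rat Gene 1.0 ST), and per the deposited table each value is a log2 signal of a probe set, summarised and normalised by the authors. How they did this was not stated in the paper or the labels. Scanner files were not used here. Groups came from the labels. Symbols came from the platform annotation, which gave 1 symbol for 15307 of the 26468 probe sets, several for 323 and none for 10838. With the lys filter, 18690 probe sets were tested and 7777 were not. Group means of the 4 groups (DA and aorta in F and N) were fitted over 12 arrays with limma 3.58.1 (R 4.3.3), so that all groups shared one estimate of the spread, and p-values were adjusted by Benjamini-Hochberg over all tested probe sets. The fit was tested on simulated data. A gene in a list was represented by its brightest probe set.

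Genes were named by rule: the 20 largest rises and 20 largest falls with non-overlapping vessels, and from each of 54 lists up to 8 members with the lowest p and those needed to complete a sentence. The members, lists and motifs were chosen with earlier results of these data known. The fit behind the calls had no term for the replicate number. In the replicate block over all arrays, a number was taken to join the vessels and also F and N. The block on the F arrays alone took the numbers to pair the vessels only, and it called 276 members higher and 450 lower. The reason for trying a block was that deviations from the group means correlated at 0.57, 0.15 and 0.40 between same-numbered DA and aortic F arrays. Between differently numbered ones they correlated at -0.49 to 0.23, a range that holds the same-numbered value of 0.15. Deviations within a group cancel out, so these correlations are tied to one another, and they were not tested. They cover the F arrays only and do not bear on a number shared between F and N. The labels do not say what a number marks. The methods count litters for each developmental group and not for each vessel, so DA and aortic arrays may share litters. Alternatives were the replicate block, other filters, normalisations, variance priors, array weights, the methods' t-test, a mean over probe sets, and leaving out arrays.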

Additional observations from a re-analysis of the deposited data

How the results depend on the processing

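The counts of members higher and lower in the DA, 214 and 301, depended on how the spread was modelled. They were 491 and 832 with the replicate block over 12 arrays, and 276 and 450 with the block on the 6 F arrays alone. With array weights, whose estimation stopped before it converged, they were 535 and 1101. Adjusted by Benjamini-Hochberg, the t-test of the methods called 20 and 32, and for differences of at least 2-fold 14 and 17 in place of 75 and 95. Unadjusted, it gave 77 and 95. Without 1 array the counts were 140 to 178 higher and 189 to 254 lower, and at least 2-fold 71 to 83 and 82 to 103. Without the 4 arrays numbered 1, an alternative chosen after seeing the data because within each group the lys spike is highest on them, there were 130 and 212, of which 70 and 99 were at least 2-fold, and of 239 calls of list members, leading genes and probe sets named by the study 14 ended only there, Dkk1 and Twist1 among them. With the lys spike reached on every F array, 72 were at least 2-fold higher and 53 at least 2-fold lower. That filter acts mostly through the high spike of DA F 1. There 3789 members lay below it, against 582 on aorta F 1 and at most 28 on the other F arrays. Of the same 239 calls 60 ended without some F array. The difference in vessel contrast between N and F was called for 0 members by limma in all alternatives run, and no direction reversed. The block over 12 arrays ended no call of a named gene, while on the 6 F arrays alone it ended 6 of the calls among 413 named genes (Adgre5, Cpt1a, P3h1, Pde5a, Sox8 and Vcan). Over 12 arrays it added calls beyond those given above for other list members, counted with the lists, and changed no other call. Of the 515 called members, 105 were below the spike on at least 1 F array. The high spike of DA F 1 enters that count. Where a signal lies near background, it limits what the falls and the rises can show.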
